A study of Homo sapiens with 12 samples.

Results

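The genes described here are 35 targets of the tumour suppressor p53, taken as a list of gene symbols that each had to reach 10 or more normalized counts in at least 2 of the 12 libraries. All 35 symbols were in the table and all 35 passed, among 13924 genes that passed the same filter and 27106 in the table. The study sequenced poly(A) RNA of IMR90 cells, a human lung fibroblast line, here carrying hTERT, the catalytic subunit of telomerase. All 12 libraries come from cells that carry an oncogenic Ras fused to a tamoxifen-responsive domain (RasERT2) and a doxycycline-inducible hairpin. Per the labels, 0.5 µg/ml doxycycline induced the hairpin, and the cells then received ethanol as a control or 200 nM tamoxifen to activate Ras. The control hairpin is a scramble (shScr) and the other hairpin is directed at the interleukin-1 receptor (shIL1R). Each hairpin was sampled growing at day 0, at day 4, when they begin to senesce per the labels, and senescent at day 10, which gives 6 groups of 2 libraries. The labels do not say whether the 2 libraries of a group are separate cultures, nor whether both shIL1R replicates carry the same hairpin. The p-values therefore measure only the spread between these libraries, which may be in part technical.

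p53 is a transcription factor that is kept low in growing cells, because its own target MDM2 marks it for degradation. DNA damage and oncogene signals stabilise it, and it then switches on genes for arrest of the cell cycle, DNA repair, metabolic adjustment and cell death, together with its own inhibitors. In fibroblasts it is known as a main driver of the arrest that follows oncogenic Ras. The members are described in 6 groups by role: feedback on p53, arrest and growth control, DNA repair and nucleotide supply, metabolism and redox, cell death with mitochondria and autophagy, and surface, RNA and other roles.

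The sequence that p53 binds is made of 2 copies of a decamer (the p53 response element), and the promoter windows of the members show where its letters stand close to a gene start. RefSeq windows (GRCh38.p14, from 250 bases before to 50 bases after a start) were found for 30 of the 35 genes, 46 windows in all. The decamer, which reads the same on both strands, was present in 6 of these 30 genes (20%), against 8.06% of all 27305 genes with a window. A whole element, with 2 decamers at most 13 bases apart, was in 1 member, DDB2, and in 10 genes of all. The stretches are shown with the decamers in capitals, 5′ to 3′ on the strand of the gene, because they let the 6 genes be set beside their measured changes.
DDB2: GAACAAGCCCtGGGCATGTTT
FDXR: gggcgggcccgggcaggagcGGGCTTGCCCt
AEN: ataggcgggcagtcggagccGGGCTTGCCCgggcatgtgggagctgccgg
FAS: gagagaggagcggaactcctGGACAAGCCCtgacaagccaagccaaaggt
SESN1: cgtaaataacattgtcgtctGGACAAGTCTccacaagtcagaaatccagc
PLK2: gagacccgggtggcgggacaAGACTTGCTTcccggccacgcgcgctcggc
The DDB2 element lies at chr11:47214979-47214999 on the plus strand, from base 6 to base 26 of the transcript, with 1 base between its decamers. The FDXR stretch is chr17:74872995-74873025 on the minus strand, with the decamer starting 11 bases before the start. AEN (chr15:88621286-88621335 on the plus strand) has it 34 bases, FAS (chr10:88991289-88991338 on the plus strand) 122 bases, SESN1 (chr6:109009008-109009057 on the minus strand) 49 bases and PLK2 (chr5:58460189-58460238 on the minus strand) 132 bases before the start. In senescent against growing shScr cells, the change of these 6 genes ran from 1.22 ± 0.15 on the log2 scale for FDXR to −0.48 ± 0.13 for PLK2. DDB2 stood at 0.64 ± 0.17, SESN1 at 0.58 ± 0.20, AEN at 0.36 ± 0.16 and FAS at 0.15 ± 0.27, so the letters occur in genes that rose, in a gene that fell and in genes that were not called. A match of letters is a description of the window, and p53 binding was not measured here.

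The libraries held 24140324 to 30127727 gene-assigned reads. IL1R1, the target of the hairpin, read 1509 and 1552 on day 0, 1546 and 1423 on day 4, and 1580.1 and 1239.6 on day 10 in the shScr libraries, in normalized counts. In the shIL1R libraries it read 731 and 378 on day 0, 272 and 86.4 on day 4, and 295 and 279.9 on day 10, lower in each library than in both shScr libraries of the day. The log2 difference was −1.54 ± 0.42 (limma adjusted p = 0.281) at day 0, −3.27 ± 0.42 (limma adjusted p = 0.0205) at day 4 and −2.28 ± 0.42 (limma adjusted p = 0.0102) at day 10. Replicate 2 of shIL1R day 10 stood apart: on the first principal component, with 68.9% of the variance, it lay at 45.95, and the other day 10 libraries from 77.25 to 90.54. The 9 fibroblast markers were all present. They summed to 483368 normalized counts in replicate 2 of shIL1R day 10, against 315959 to 328140 in the other day 10 libraries. Growing cells gave 396605 and 445235 with shScr, and 486712 and 494571 with shIL1R. Endothelial CDH5 and the T cell gene CD3E were at 0 in all 12 libraries, and CDH1 and PTPRC stayed at or below 3.04 normalized counts. The 4 endothelial markers summed to 5.84 to 17.5 in growing and 112 to 166 in senescent shScr cells, the 4 leukocyte markers, nearly all CD68, to 2864 to 3147 and 7311 to 8930.5. The 5 epithelial markers summed to 98.3 to 153 and 156 to 172, with KRT5 at 0, and the 3 smooth muscle markers to 2669 to 3092 and 1159 to 1519. KDR and VWF, markers of endothelium, were 4.50 ± 0.64 and 3.15 ± 0.51 at day 10 in shScr cells, from low day 0 means of 2.21 and 6.76 normalized counts. CD68, listed with the leukocyte markers, was 1.43 ± 0.15. The part of these markers in the changes of the p53 targets was not tested.

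Over the course of Ras activation in shScr cells, most p53 targets rose. At day 4, 21 of the 35 were higher than at day 0 and 0 lower, beside 19.4% and 18.9% of all genes tested. At day 10, 27 were higher and 3 lower than at day 0, where 32.5% and 31.3% of all genes were called. A gene was called where its adjusted p in limma was below 0.05 over the 13924 genes. The list of members was chosen with earlier results of these data known, so setting it beside all genes is no independent test. The median log2 fold change of the 35 was 0.50 at day 4 and 0.64 at day 10, and over all genes tested −0.0053 and 0.0057. Most changes were moderate, from −0.61 for POLH to 3.08 for PLK3 at day 10. Both day 10 libraries lay above both day 0 libraries for 31 of the 35 and below both for 3, against 42.6% and 42.2% of all genes. Between day 4 and day 10, 12 were higher and 2 lower, beside 21.7% and 22.4% of all genes. That last count of 14 called members rested on single libraries. It fell if either shScr day 4 library or shScr day 10 replicate 2 was left out, and rose if either shIL1R day 10 library was. The share of all genes called in those refits is not given. The ribosomal precursor RNA45S5 took 3.41% of the reads in replicate 2 of shScr day 4 and 1.79% in replicate 1, and its part in these counts was not tested. In bulk RNA a change in how many cells express a gene and a change in RNA per cell cannot be told apart.

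**Figure D1:**
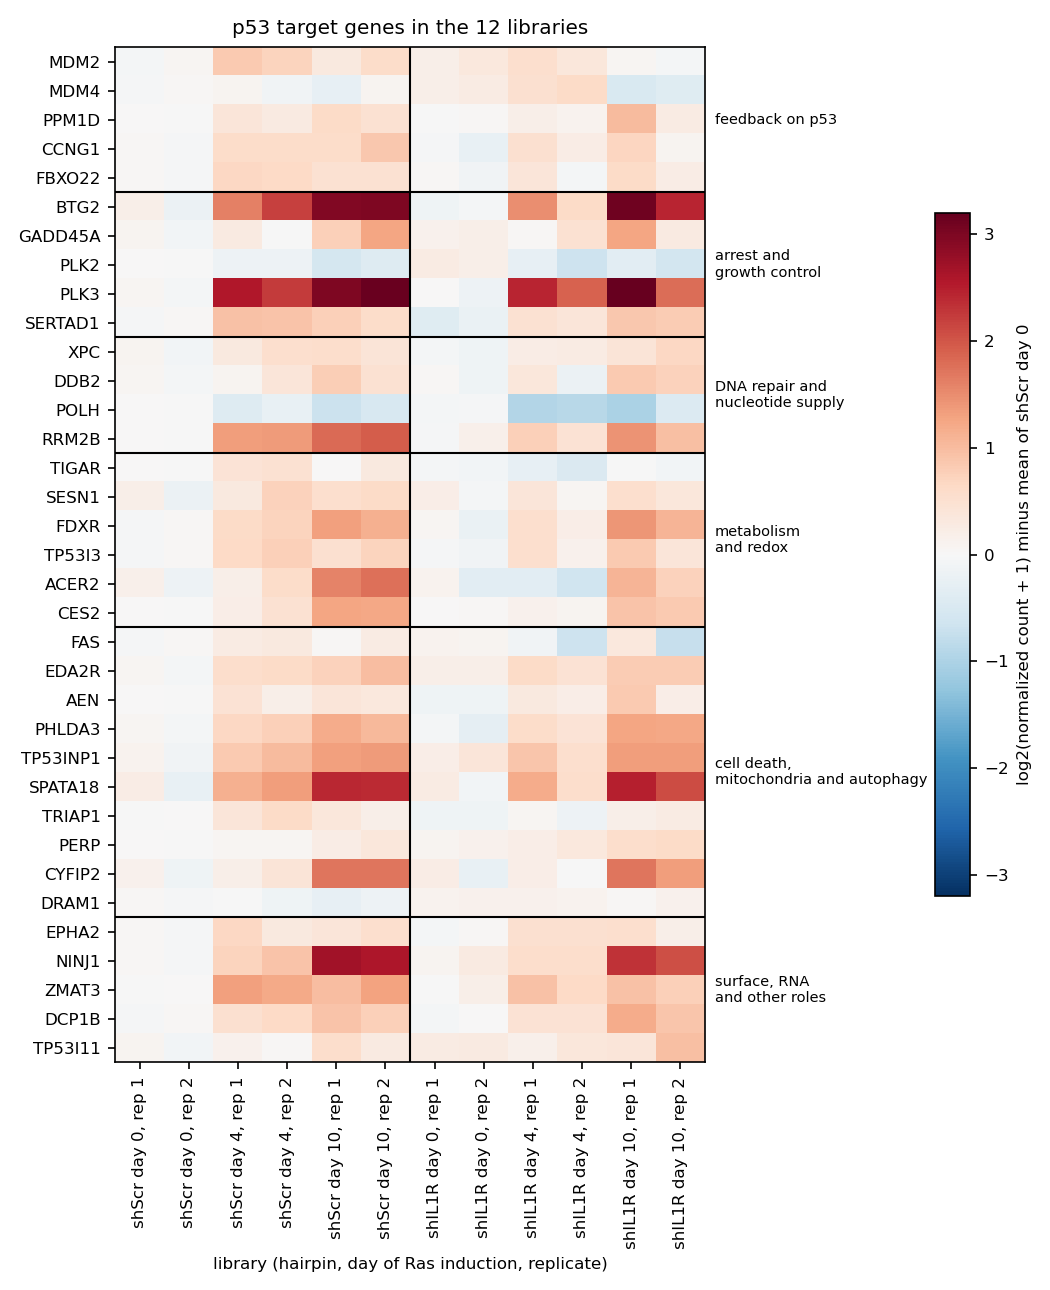
Log2 of the normalized count plus 1 in each library (columns, by hairpin, day and replicate) minus the mean of the 2 shScr day 0 libraries, for the 35 p53 targets (rows, grouped by role). Red is higher and blue lower than growing shScr cells: BTG2, PLK3, SPATA18 and NINJ1 have the deepest red in the 4 day 10 libraries, and PLK2 and POLH are blue there.

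With the shIL1R hairpin the targets also rose. At day 4, 15 of 35 were higher and 2 lower than at day 0 (background 20.1% and 20.3%), with a median of 0.34. At day 10, 25 were higher and 3 lower (30.0% and 30.3%), with a median of 0.64. From day 4 to day 10, 15 were higher and 2 lower (17.6% and 18.3%), with a median of 0.32. The day 10 count against day 0, 28 called, was 28 without the library that stood apart and 27 without its partner. The day 4 count of 17 fell without replicate 1 of shIL1R day 0 or of shIL1R day 4. The share of all genes called in those refits is not given.

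**Figure D2:**
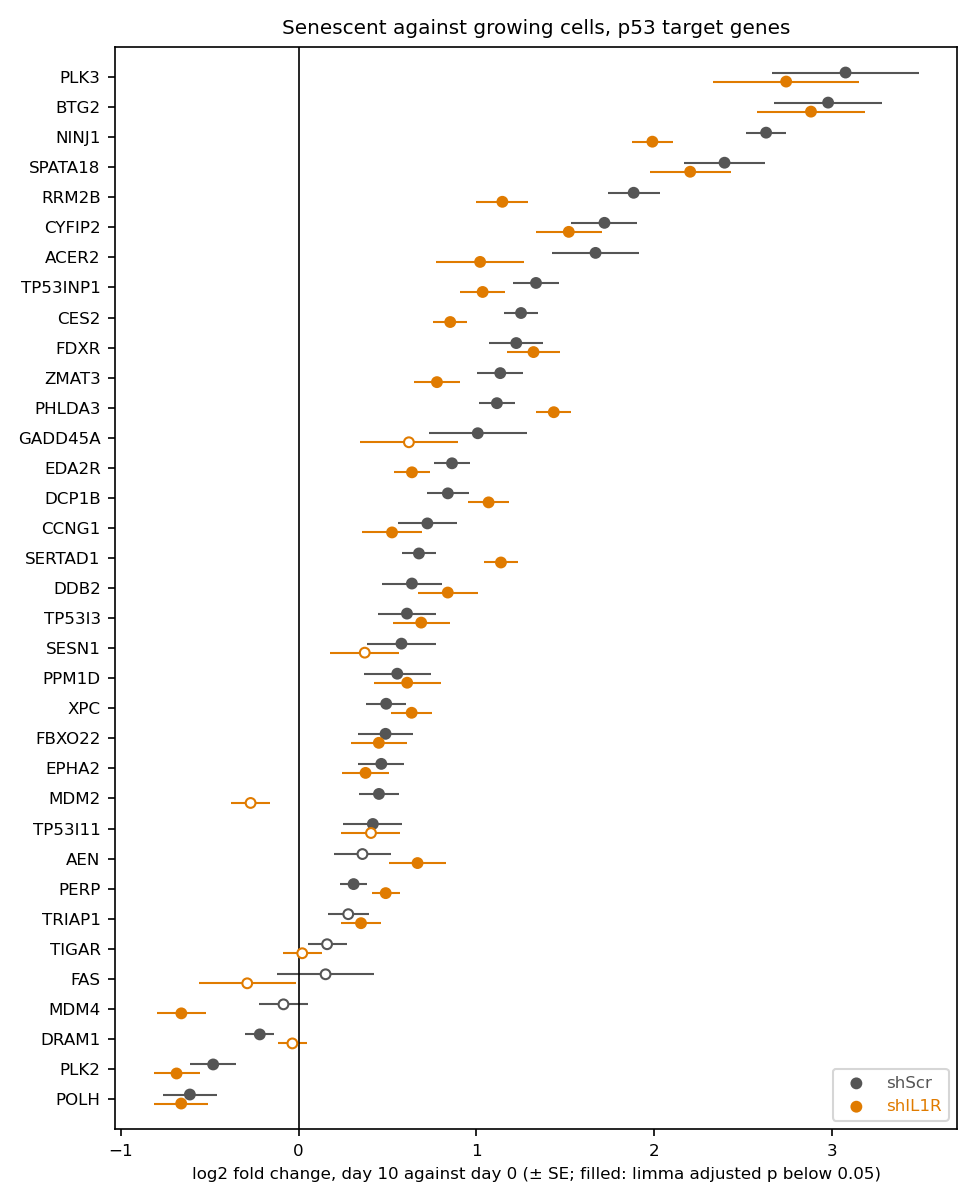
Log2 fold change of the 35 p53 targets at day 10 against day 0 (horizontal axis, ± SE from limma) in shScr (grey) and shIL1R (orange) cells, ordered by the shScr value, with filled points for limma adjusted p below 0.05. The points run from POLH at −0.61 ± 0.15 to PLK3 at 3.08 ± 0.41 in shScr cells, and MDM2 is the gene whose called shScr value lies above 0 while its shIL1R value lies below 0.

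Among the 5 genes that act back on p53, 4 were higher and 0 lower at day 10 in shScr cells (32.5% and 31.3% of all genes), and the main inhibitor peaked at day 4. MDM2, the ubiquitin ligase that marks p53 for degradation, read 1683 and 1814 on day 0, 3141 and 2868 on day 4, and 2175 and 2628 on day 10 in shScr cells. Both day 4 libraries lay above the other 4 shScr libraries. The log2 change was 0.78 ± 0.11 (limma adjusted p = 0.000296) from day 0 to day 4, then −0.33 ± 0.11 (limma adjusted p = 0.0319) from day 4 to day 10, and 0.45 ± 0.11 (limma adjusted p = 0.004) from day 0 to day 10. The step down was lost on leaving out either shScr day 4 library or shScr day 10 replicate 1 (limma adjusted p from 0.055 to 0.25), with log2 changes of −0.19 without replicate 1 and −0.46 without replicate 2 of shScr day 10. In shIL1R cells MDM2 read 1999 and 2207 on day 0, 2516 and 2231 on day 4, and 1821 and 1665 on day 10, with both day 10 libraries below both day 0 libraries, a change that was not called (−0.27 ± 0.11, limma adjusted p = 0.0531). Its step from day 4 to day 10 was called lower there (−0.44 ± 0.11), a call lost on leaving out shIL1R day 4 replicate 1 (limma adjusted p = 0.0788). MDM4, a relative of MDM2 that holds p53 inactive, was at −0.085 ± 0.14 in shScr cells at day 10, where it was not called. In shIL1R cells it fell from 451 and 485 on day 4 to 224 and 242 on day 10 (−1.0044 ± 0.14, limma adjusted p = 0.000384), with a change from day 0 of −0.66 ± 0.14 that was also called. PPM1D, a phosphatase that reverses p53 and ATM signalling, rose by day 10 in shScr (0.55 ± 0.19) and shIL1R cells (0.61 ± 0.19). The shScr call was lost on leaving out either shScr day 0 library or either shScr day 10 library (limma adjusted p from 0.0529 to 0.111). The shIL1R call was lost on leaving out either shIL1R day 0 library or shIL1R day 10 replicate 1 (limma adjusted p from 0.0527 to 0.111). There the value was 0.23 if replicate 1 and 0.99 if replicate 2 of the day 10 group was left out. CCNG1, cyclin G1, which acts with a phosphatase on MDM2, rose to 4708 and 5701 on day 10 from 3215 and 3057 on day 0 in shScr cells (0.72 ± 0.17, limma adjusted p = 0.00289). FBXO22, the substrate-binding subunit of a ubiquitin ligase, was higher at day 4 (0.66 ± 0.16) and at day 10 (0.49 ± 0.16). The earlier call was lost on leaving out shScr day 0 replicate 2 (limma adjusted p = 0.0536) and the later call on leaving out shScr day 0 replicate 2 or either shScr day 10 library (limma adjusted p from 0.0613 to 0.0919). Of its annotated exon bases 16.2% overlap NRG4 on the other strand.

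The group for arrest and growth control held the steepest rises of the list, BTG2 and PLK3. BTG2, an antiproliferative protein that speeds removal of mRNA tails, read 87.3 and 65.9 on day 0, 233 and 347 on day 4, and 601 and 609.7 on day 10 in shScr cells, with no overlap between days. It read 69.1 and 72.3 on day 0, 216 and 117 on day 4, and 665 and 419 on day 10 in shIL1R cells, where the days did not overlap either. The log2 change at day 10 was 2.98 ± 0.30 in shScr and 2.88 ± 0.30 in shIL1R cells (limma adjusted p = 7.46e-06 and 1.17e-05). PLK3, a polo-like kinase of the stress response, read 727 and 676 on day 0, 4114 and 3334 on day 4, and 5604 and 6262 on day 10 in shScr cells. In shIL1R cells it read 704 and 627 on day 0, 3813 and 2580.3 on day 4, and 8246 and 2407 on day 10, so the 2 shIL1R day 10 libraries stood on either side of both shScr ones. The change by day 10 was 3.08 ± 0.41 (limma adjusted p = 6.16e-05) in shScr and 2.74 ± 0.41 (limma adjusted p = 0.000169) in shIL1R cells. PLK2, the related kinase, moved the other way and read 1657 and 1657 on day 0, 1482 and 1479 on day 4, and 1127 and 1251 on day 10 in shScr cells. Both day 10 libraries lay below both day 0 libraries (−0.48 ± 0.13, limma adjusted p = 0.0071), a call lost on leaving out shScr day 10 replicate 1 (limma adjusted p = 0.0568). In shIL1R cells PLK2 fell by day 4 (−0.69 ± 0.13, limma adjusted p = 0.00186) and was as far down at day 10 (−0.69 ± 0.13). GADD45A, a growth arrest and damage-response protein, rose in shScr cells from 1185 and 1036 on day 0 to 1875 and 2651 on day 10 (1.01 ± 0.27, limma adjusted p = 0.00757). That call was lost on leaving out shScr day 0 replicate 2 or shScr day 10 replicate 2 (limma adjusted p from 0.0518 to 0.0768), and in shIL1R cells the libraries read 2673 and 1356 on day 10 and the change was not called (0.62 ± 0.27, limma adjusted p = 0.0708). SERTAD1, which binds CDK4 and E2F partners, was higher at day 4 (0.92 ± 0.095) and day 10 (0.68 ± 0.095) in shScr cells and at both days in shIL1R cells (0.73 ± 0.095 and 1.14 ± 0.095).

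**Figure D3:**
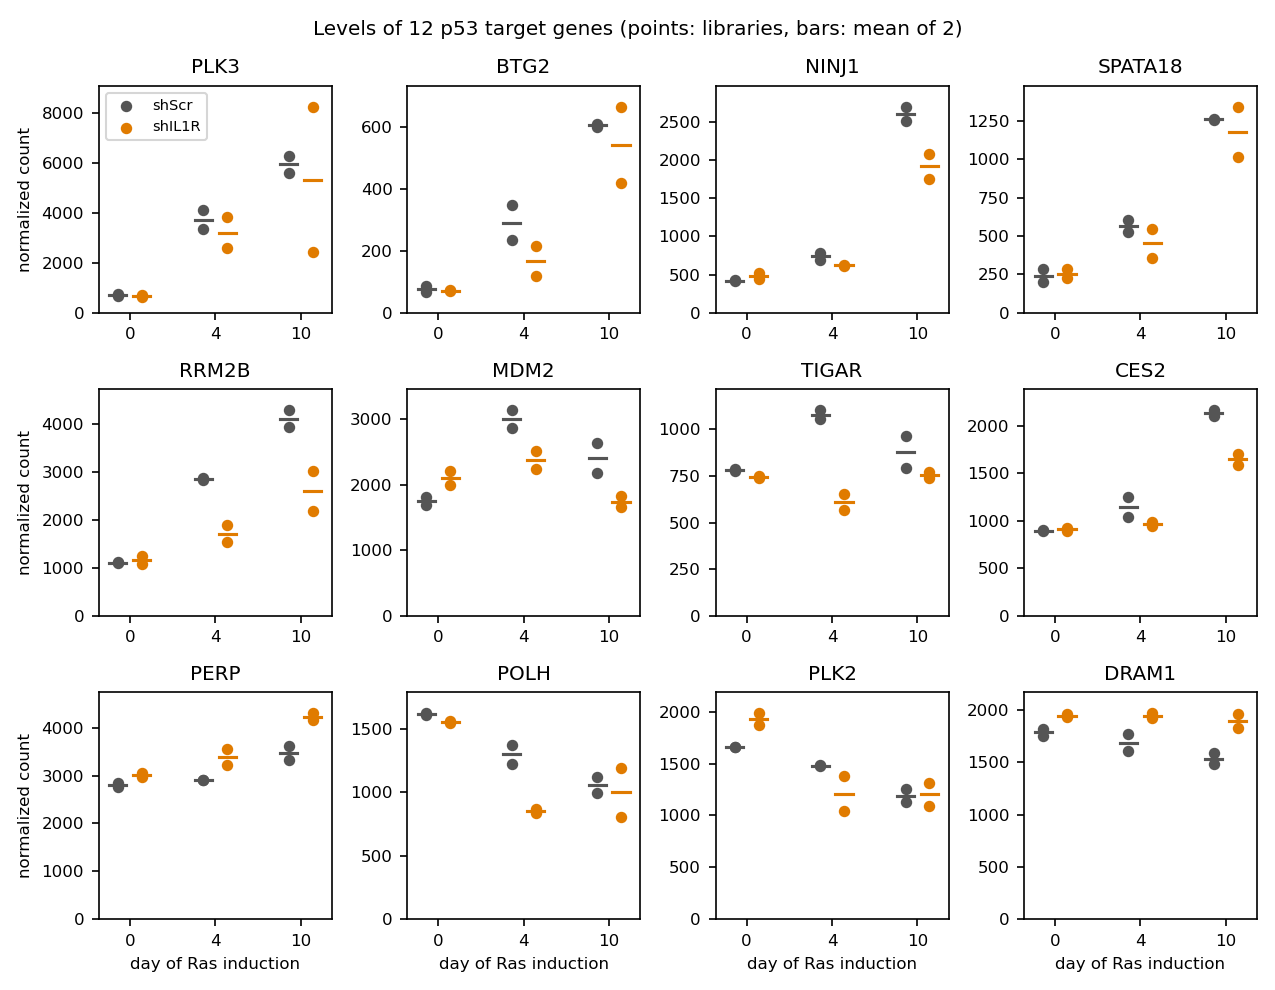
Normalized counts (vertical axes, each from 0) of 12 p53 targets at days 0, 4 and 10 of Ras induction, where points are libraries, in grey for shScr and orange for shIL1R, and bars their means. Both shIL1R points of RRM2B, CES2 and NINJ1 lie below the shScr points at day 10, MDM2 peaks at day 4 in shScr cells, and POLH, PLK2 and, in shScr cells, DRAM1 go down.

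Of the 4 genes for DNA repair and nucleotide supply, 3 were higher and POLH lower at day 10 in both kinds of cells (all genes 32.5% and 31.3% in shScr and 30.0% and 30.3% in shIL1R cells). RRM2B, the p53-inducible subunit of ribonucleotide reductase that supplies nucleotides outside S phase, read 1117 and 1108 on day 0, 2838 and 2868 on day 4, and 3934 and 4299 on day 10 in shScr cells. It read 1079 and 1251 on day 0, 1889 and 1539 on day 4, and 3026 and 2187 on day 10 in shIL1R cells, so both shIL1R libraries were below both shScr libraries on days 4 and 10. The change by day 10 was 1.89 ± 0.15 (limma adjusted p = 9.51e-07) in shScr and 1.15 ± 0.15 (limma adjusted p = 5.01e-05) in shIL1R cells. XPC, which finds lesions for nucleotide excision repair, was 0.49 ± 0.11 and 0.64 ± 0.11 at day 10 in the shScr and shIL1R cells, both called. DDB2, its partner in finding ultraviolet lesions, rose by 0.64 ± 0.17 and 0.84 ± 0.17, and the shScr call was lost on leaving out shScr day 10 replicate 1 (limma adjusted p = 0.0661). POLH, the polymerase eta that copies past lesions, read 1627 and 1608 on day 0, 1222 and 1377 on day 4, and 996 and 1124 on day 10 in shScr cells. It fell there by 0.61 ± 0.15 on the log2 scale (limma adjusted p = 0.00421). It read 1547 and 1563 on day 0, 839 and 873 on day 4, and 808 and 1196 on day 10 in shIL1R cells. There the fall was called at day 4 (−0.86 ± 0.15, limma adjusted p = 0.00122) and the day 10 libraries differed from each other, so that the change was −0.94 from replicate 1 alone and −0.38 from replicate 2 alone.

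Of the 6 metabolic and redox targets, 4 were higher at day 4 and 5 at day 10 in shScr cells, and 1 and 4 in shIL1R cells, with 0 lower. The shares of all genes called higher were 19.4% and 32.5% in shScr cells, and 20.1% and 30.0% in shIL1R cells, so the shIL1R count at day 4 is near the background. ACER2, a ceramidase of the Golgi, read 62.5 and 49.2 on day 0, 62.8 and 83.3 on day 4, and 169 and 189 on day 10 in shScr cells. In shIL1R cells it read 60.2 and 43.9 on day 0, 44 and 35.4 on day 4, and 119.9 and 92.6 on day 10. Its day 10 values lay above all earlier ones of the same hairpin (1.67 ± 0.25, limma adjusted p = 0.000124 in shScr and 1.02 ± 0.25 in shIL1R cells). CES2, a carboxylesterase, read 905 and 889.6 on day 0, 1041 and 1255 on day 4, and 2168 and 2107 on day 10 in shScr cells (1.25 ± 0.10, limma adjusted p = 9.14e-07). The shIL1R libraries read 898 and 923 on day 0, 986 and 946 on day 4, and 1701 and 1590.3 on day 10 (0.85 ± 0.10 at day 10), lower at day 10 than both shScr libraries. FDXR, the mitochondrial reductase that feeds electrons to ferredoxin, was 1.22 ± 0.15 in shScr and 1.32 ± 0.15 in shIL1R cells, and TP53I3, a quinone oxidoreductase, 0.61 ± 0.16 and 0.69 ± 0.16, all called. The shScr call of TP53I3 was lost on leaving out shScr day 10 replicate 2 (limma adjusted p = 0.0564). SESN1, a sestrin that restrains mTORC1, was called in shScr cells (0.58 ± 0.20), a call lost on leaving out shScr day 0 replicate 2 or either shScr day 10 library (limma adjusted p from 0.0574 to 0.182), and not in shIL1R cells (0.37 ± 0.20). TIGAR, a phosphatase that slows glycolysis, peaked at day 4 in shScr cells and read 785 and 779 on day 0, 1055 and 1106 on day 4, and 793 and 964 on day 10. The rise to day 4 was 0.46 ± 0.11 (limma adjusted p = 0.00663), and the step from day 4 to day 10 was −0.30 ± 0.11 (limma adjusted p = 0.0421). That second step was lost on leaving out either shScr day 0 library, either shIL1R day 0 library, either shScr day 4 library or shScr day 10 replicate 1 (limma adjusted p from 0.061 to 0.307), with −0.16 without replicate 1 of shScr day 10. In shIL1R cells TIGAR read 749 and 741 on day 0, 654 and 570.3 on day 4, and 771 and 740.4 on day 10, lowest in both libraries at day 4, where the change from day 0 was not called (−0.29 ± 0.11, limma adjusted p = 0.0573). In GENCODE release 29, 42.6% of its exon bases are shared with AC008012.1 on the same strand, a name that the table does not list.

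The 10 genes for cell death, mitochondria and autophagy moved unevenly, with 6 higher and 1 lower at day 10 in shScr cells and 8 higher and 0 lower in shIL1R cells. All genes gave 32.5% and 31.3% in shScr and 30.0% and 30.3% in shIL1R cells. SPATA18, which removes damaged mitochondrial protein, read 283 and 201 on day 0, 524 and 603 on day 4, and 1265 and 1256 on day 10 in shScr cells. The shIL1R cells gave 287 and 223 on day 0, 548 and 354 on day 4, and 1344 and 1017 on day 10. No 2 days overlapped for either hairpin. Its change by day 10 was 2.40 ± 0.23 (limma adjusted p = 4.56e-06) in shScr and 2.20 ± 0.23 (limma adjusted p = 1.06e-05) in shIL1R cells. CYFIP2, a subunit of the WAVE actin regulator, rose between day 4 and day 10. It read 229 and 190.3 on day 0, 237 and 276 on day 4, and 690.3 and 689.7 on day 10 in shScr cells (1.43 ± 0.19, limma adjusted p = 0.000159 for the late step). The shIL1R cells gave 247 and 177 on day 0, 240.3 and 206 on day 4, and 685 and 529 on day 10 (1.43 ± 0.19). TP53INP1, which acts in p53 phosphorylation and autophagy, read 480.5 and 414 on day 0, 798 and 906 on day 4, and 1114 and 1140.3 on day 10 in shScr cells (1.34 ± 0.13, limma adjusted p = 4.87e-06). The 4 day 10 libraries of the 2 hairpins lay between 1114 and 1140.3. PHLDA3, a repressor of AKT, was 1.12 ± 0.10 in shScr and 1.44 ± 0.10 in shIL1R cells by day 10, and EDA2R, a receptor of the TNF receptor family, 0.86 ± 0.10 and 0.64 ± 0.10, all called. PERP, a membrane protein of cell junctions, read 2838 and 2759.7 on day 0, 2911 and 2916 on day 4, and 3325 and 3616 on day 10 in shScr cells. The shIL1R cells gave 2965 and 3065 on day 0, 3219.7 and 3560.3 on day 4, and 4161 and 4309 on day 10, above both shScr libraries on each day. The changes by day 10 were 0.31 ± 0.078 (limma adjusted p = 0.00481) and 0.49 ± 0.078 (limma adjusted p = 0.000256). The death receptor FAS was called in none of the 6 comparisons of days. Its shScr libraries read 768 and 799 on day 0, 938 and 966 on day 4, and 811 and 935 on day 10. Its shIL1R libraries read 849 and 829.7 on day 0, 729.7 and 497 on day 4, and 996 and 473 on day 10, with the 2 day 10 libraries on either side of both shScr ones. AEN, an exonuclease of apoptosis, and TRIAP1, a mitochondrial lipid carrier, missed at day 10 in shScr cells, at 0.36 ± 0.16 (limma adjusted p = 0.0735) and 0.28 ± 0.11 (limma adjusted p = 0.0515), and were called in shIL1R cells (0.67 ± 0.16 and 0.35 ± 0.11). The shIL1R call of TRIAP1 was lost on leaving out either shIL1R day 0 library or shIL1R day 10 replicate 2 (limma adjusted p from 0.0633 to 0.0772), and AEN stood at 0.35 without replicate 1 of shIL1R day 10. DRAM1, a lysosomal membrane protein of autophagy, read 1821 and 1755 on day 0, 1768 and 1612 on day 4, and 1488 and 1586 on day 10 in shScr cells and was lower at day 10 (−0.22 ± 0.081, limma adjusted p = 0.0337). That call was lost on leaving out either shScr day 0 library, either shIL1R day 0 library or shScr day 10 replicate 1 (limma adjusted p from 0.0502 to 0.164), and the shIL1R value was −0.035 ± 0.081.

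All 5 genes of the last group, with surface, RNA and other roles, were higher at day 10 in shScr cells and 4 of 5 in shIL1R cells, beside 32.5% and 30.0% of all genes. NINJ1, a protein that ruptures the membrane of dying cells, read 431 and 411 on day 0, 689.6 and 788 on day 4, and 2706 and 2517 on day 10 in shScr cells. It read 447 and 517 on day 0, 624 and 618 on day 4, and 2086 and 1756 on day 10 in shIL1R cells, with most of the rise after day 4 for both hairpins. The late step was 1.82 ± 0.11 (limma adjusted p = 2.98e-06) in shScr and 1.62 ± 0.11 (limma adjusted p = 1.30e-05) in shIL1R cells, and the whole change 2.63 ± 0.11 and 1.99 ± 0.11. ZMAT3, an RNA-binding regulator of splicing, read 1459.8 and 1482 on day 0, 3626 and 3409 on day 4, and 2908 and 3589 on day 10 in shScr cells. Its rise was called at day 4 (1.26 ± 0.13, limma adjusted p = 3.85e-05), and the step from day 4 to day 10 was not (−0.12 ± 0.13). DCP1B, a cofactor of mRNA decapping, was 0.84 ± 0.12 in shScr and 1.07 ± 0.12 in shIL1R cells by day 10, both called. EPHA2, a receptor tyrosine kinase, was 0.47 ± 0.13 and 0.38 ± 0.13. The shScr call was lost on leaving out shScr day 0 replicate 2 or shScr day 10 replicate 2 (limma adjusted p from 0.0569 to 0.0634). The shIL1R call was lost on leaving out either shIL1R day 0 library or shIL1R day 10 replicate 1 (limma adjusted p from 0.0562 to 0.199), with a value of 0.20 without replicate 1 of shIL1R day 10. TP53I11, a membrane protein, was 0.42 ± 0.17 (limma adjusted p = 0.0455) in shScr cells. It lost its call on leaving out either shScr day 0 library, either shIL1R day 0 library, either shScr day 4 library, either shIL1R day 4 library or shScr day 10 replicate 1 (limma adjusted p from 0.0535 to 0.259), and was not called in shIL1R cells (0.41 ± 0.17).

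The hairpins were then compared on each day. In growing cells 0 of the 35 targets differed by limma (3 at an unadjusted p below 0.05, and 0 by edgeR and by DESeq2), where limma called 0.0646% of all genes. The median log2 difference, shIL1R minus shScr, was 0.0044 there, −0.24 at day 4 and −0.11 at day 10, and that of all genes tested was −0.01, −0.00055 and −0.0034. At day 4, 29 of 35 values were below 0 (50.1% of all genes). Both shIL1R libraries lay below both shScr libraries for 21 targets and above both for 4, where 27.3% and 25.8% of all genes did so. Taken singly, replicate 1 of shIL1R day 4 was below both shScr libraries for 21 targets and replicate 2 for 28, and 37.1% and 40.6% of all genes were. In growing cells these counts were 11 and 15, beside 38.9% and 42.4% of all genes, so they were near the background. Each growing shIL1R library lay above both shScr libraries for 15 targets, beside 35.1% and 36.9% of all genes. All genes include risers and fallers, whereas 31 of the 35 targets were above 0 from day 0 to day 4 in shScr cells. On the first principal component the day 4 libraries lay at −5.11 and −11.2 with shIL1R, and at 2.80 and 0.15 with shScr. Those of day 0 lay from −74.3 to −68.8. The part of this shift in the day 4 values of the targets was not tested. Few single genes reached the threshold at day 4: TIGAR was the member called (−0.82 ± 0.11, limma adjusted p = 0.0216), beside 0.237% of all genes called lower and 0.0431% called higher. Its call was lost on leaving out either shScr day 0 library, either shIL1R day 0 library, either shScr day 4 library or shIL1R day 4 replicate 2 (limma adjusted p from 0.0617 to 0.237), with a replicate block within each hairpin (limma adjusted p = 0.13) and when only the compared groups were fitted (limma adjusted p = 0.137). DESeq2 on the recovered reads called 7 members, but its share of all genes called is not given, so this count has no background here. Limma without either library of shIL1R day 10 also called more members, again with no such share given.

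At day 10, 4 targets were lower and 2 higher in shIL1R cells, beside 4.85% and 4.37% of all genes. RRM2B was lower by 0.68 ± 0.15 (limma adjusted p = 0.0195) and MDM2 by 0.46 ± 0.11 (limma adjusted p = 0.0293) on the log2 scale. NINJ1 was lower by 0.45 ± 0.11 (limma adjusted p = 0.0362) and CES2 by 0.38 ± 0.10 (limma adjusted p = 0.0357). PERP (0.29 ± 0.078, limma adjusted p = 0.0436) and DRAM1 (0.30 ± 0.081, limma adjusted p = 0.0407) were higher. With no filter on low values the calls of PERP (limma adjusted p = 0.0564) and DRAM1 (limma adjusted p = 0.0508) were lost, and DRAM1 also with a replicate block (limma adjusted p = 0.0513). All 6 calls were lost with a block within each hairpin and when only the compared groups were fitted. For each of these 6 genes both shIL1R libraries lay on the same side of both shScr libraries. That is no separate support, because the genes were called from these same libraries. None of the 6 calls held without replicate 2 of shIL1R day 10, the library that stood apart. None held without replicate 2 of shScr day 10 either, so the calls did not rest on the outlying library alone. DRAM1 kept its call only where replicate 1 of shIL1R day 10 was left out. PERP also lost its call without any library of day 0 or either shScr day 4 library. Without replicate 2 of shIL1R day 10 the directions of the 6 held, from −0.44 for RRM2B to 0.26 for PERP. Without that library AEN stood at 0.48, and without replicate 1 in its place PLK3 stood at −1.30 and FAS at −0.88. The number of members called changed with the library left out. The share of all genes called in those refits is not given, so such counts are not read as results about the targets. The 2 shIL1R day 10 libraries differed from each other in the targets: replicate 2 was lower for 27 of 35, with a median difference of −0.25 (50.6% of all genes, median −0.0057). Against the shScr libraries of day 10, replicate 1 was below both for 12 targets and above both for 18, and replicate 2 below both for 23 and above both for 7. Of all genes, 39.6% and 38.5% were so placed in replicate 1, and 42.5% and 41.7% in replicate 2. Replicate 2 of shIL1R was lower than replicate 1 for 29 targets at day 4 (median −0.20) but for 16 at day 0. In the shScr groups it was lower for 26, 14 and 14 at days 0, 4 and 10. Over the 6 groups 48.1% to 54.3% of all genes were lower in replicate 2.

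**Figure D4:**
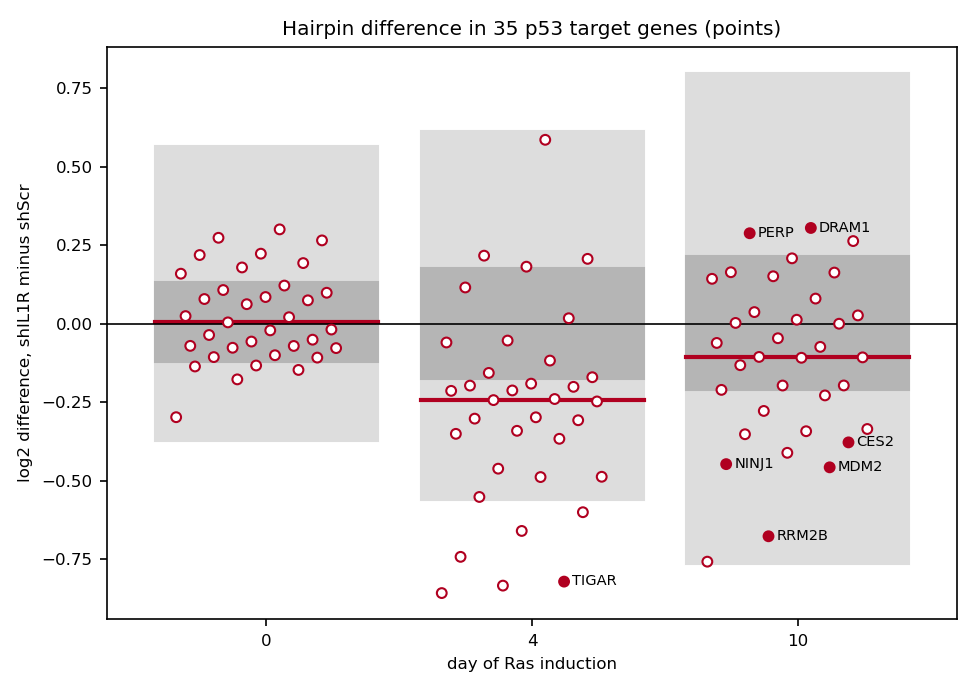
Log2 difference between shIL1R and shScr cells (vertical axis) for each of the 35 p53 targets at days 0, 4 and 10, with filled, named points for limma adjusted p below 0.05 and red lines at the medians of the 35. The dark grey box spans the quartiles and the light grey box the outer percentiles (5 and 95) of all 13924 genes tested, and the red lines lie at 0.0044, −0.24 and −0.11.

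Whether the change from day 0 differed between the hairpins was tested as the difference of the 2 changes. The groups are set by hairpin and day alone, so in this difference Ras activation and time in culture cannot be told apart. For day 4 that difference was called for 0 of the 35 targets (9 at an unadjusted p below 0.05, 0 by edgeR and 1 by DESeq2), beside 0.0287% of all genes. It was below 0, a smaller rise or larger fall in shIL1R cells, for 30 of 35 targets with a median of −0.24, and for 50% of all genes. That is no separate support, because the day 4 libraries are those of the hairpin difference at day 4. The part of their shift on the first principal component was not tested here either. For day 10 the difference of changes was called for 1 target, MDM2 (−0.72 ± 0.16, limma adjusted p = 0.0389), beside 1.54% of all genes called lower and 0.876% called higher. The values of MDM2 behind it are 0.45 ± 0.11 in shScr and −0.27 ± 0.11 in shIL1R cells. The call of MDM2 was lost on leaving out either shScr day 0 library, either shIL1R day 0 library, either shScr day 4 library, shScr day 10 replicate 2 or shIL1R day 10 replicate 2 (limma adjusted p from 0.0571 to 0.191). It was also lost with no filter on low values (limma adjusted p = 0.0631), with a replicate block (0.0516, or 0.0582 within each hairpin) and when only the compared groups were fitted (0.077). DESeq2 called 3 targets, MDM2, RRM2B and NINJ1, and its share of all genes called is not given. Without replicate 1 of shIL1R day 10 the limma difference was −1.22 for PLK3 and −0.98 for FAS. Without replicate 2 it was 0.63 for AEN. Over all 35 targets the day 10 difference was below 0 for 23, with a median of −0.14. RRM2B, at −0.74 ± 0.21 (limma adjusted p = 0.0872), and NINJ1, at −0.64 ± 0.16 (limma adjusted p = 0.0676), missed.

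Genes upstream of p53 and further targets were read from lists of general knowledge, chosen with earlier results of these data known. CDKN2A, which encodes p16 and the MDM2 inhibitor ARF from 1 locus that gene counts do not separate, rose by 2.39 ± 0.12 (limma adjusted p = 5.36e-08) in shScr and 2.70 ± 0.12 (limma adjusted p = 5.75e-08) in shIL1R cells by day 10. Of 18 upstream regulators 8 were higher and 5 lower at day 10 in shScr cells, and 8 and 7 in shIL1R cells. Over all genes the shares called higher and lower were 32.5% and 31.3% in shScr and 30.0% and 30.3% in shIL1R cells. The checkpoint kinases CHEK1 (−2.75 ± 0.15) and CHEK2 (−0.80 ± 0.15) were lower in shScr cells, and PML, a nuclear body protein that activates p53 (0.72 ± 0.10), and the kinase HIPK2 (0.53 ± 0.11) were higher. Of 46 further targets 45 were tested. Of these 24 were higher and 4 lower at day 4 in shScr cells, 35 and 7 at day 10, and 31 and 5 at day 10 in shIL1R cells, with medians of 0.53, 0.74 and 0.63. All genes tested had 19.4% and 18.9% called at day 4 in shScr cells, and the day 10 shares given above, with medians of −0.0053, 0.0057 and 0.012. The death receptor TNFRSF10B was 1.47 ± 0.15 in shScr and 0.90 ± 0.15 in shIL1R cells by day 10, and SESN2, the relative of SESN1, 1.39 ± 0.26 and 0.74 ± 0.26. Among the proapoptotic targets BAX was 0.35 ± 0.11 and 0.57 ± 0.11, and PMAIP1, which encodes NOXA, fell to 969.99 and 1212 on day 10 from 1889.8 and 2055 on day 0 in shScr cells (−0.86 ± 0.11 and, in shIL1R cells, −1.30 ± 0.11). The arrest gene CDKN1A was 2.98 ± 0.24 in shScr and 2.28 ± 0.24 in shIL1R cells, the proapoptotic BBC3 2.54 ± 0.22 and 2.50 ± 0.22, and the stress cytokine GDF15 7.04 ± 0.46 and 6.14 ± 0.46. The cytokine LIF was 4.62 ± 0.17 in shScr and 2.05 ± 0.17 in shIL1R cells. The decoy receptor TNFRSF10C was 3.44 ± 0.48 and 1.81 ± 0.48, from low day 0 means of 9.14 and 18.1 normalized counts. PCNA, the sliding clamp of replication, was −1.83 ± 0.18 and −1.32 ± 0.18, and TNFAIP8 −0.83 ± 0.17 and −1.18 ± 0.17. Every change from day 0 to day 10 given for these genes was called. Between hairpins at day 10, 1 of the 45 further targets was higher and 4 were lower in shIL1R cells, beside 4.37% and 4.85% of all genes. Both counts fell with shIL1R day 10 replicate 2 or shScr day 10 replicate 2 left out, and rose with shIL1R day 10 replicate 1 left out. The higher call was also lost without any library of day 0. The count of lower targets also rose without either shIL1R day 4 library or shScr day 10 replicate 1. The share of all genes called in those refits is not given. The day 10 change differed between hairpins for 2 of the further targets, beside 1.54% of all genes called lower. These were LIF, at −2.57 ± 0.23 (limma adjusted p = 0.000604), and SUSD6, which was 1.61 ± 0.16 in shScr and 0.49 ± 0.16 in shIL1R cells, at −1.12 ± 0.23 (limma adjusted p = 0.0299). The call of LIF held with each library left out (largest limma adjusted p = 0.00827). SUSD6 was named after its values were seen. Its call was lost on leaving out any library of day 0 or shScr day 10 (largest limma adjusted p = 0.154). With shIL1R day 10 replicate 1 left out more further targets were called, and the share of all genes called there is not given.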

How the data were processed

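The libraries were made from poly(A) RNA with a strand-specific TruSeq kit. The authors deposited normalized counts per gene, that is a signal of reads over a size factor. Per the submitters' processing notes the build was hg19 and the tools were TopHat, HTSeq and DESeq2. Their versions, the annotation and whether counting used strand are not given in the sources used here. In GENCODE release 29 (GRCh38), 9 of the 35 members share exon bases with another listed gene on the opposite strand, at most 16.2%.

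Dividing the deposited signal by the step of 1 read in a library returned whole reads for 100% of values, to within 0.001. Log2(value + 1) was tested with limma 3.58.1 (R version 4.3.3), with 6 group means fitted to the 12 libraries and a trended eBayes prior. It covered the 13924 genes with 10 or more normalized counts in at least 2 libraries. Fold changes are on this scale and carry ± SE. Two-sided p-values were adjusted by Benjamini and Hochberg over all these genes and called below 0.05. Alternatives were pseudocounts of 0.5 and 5, no filter and a filter of 50, TMM scaling, edgeR 4.0.16 (quasi-likelihood) and DESeq2 1.42.0 on the recovered reads, replicate blocks, fits of only the compared groups, and each library left out. The fit was tested on simulated data.

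All 35 members may be named. Values in every library are given for the 8 largest rises and all falls at day 10 in shScr cells, for members called between hairpins and for members called in opposite directions on successive days. The lists of members, roles, upstream genes and further targets were chosen with earlier results of these data known. The level of 1 gene of the upstream list is not reported here.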

Additional observations from a re-analysis of the deposited data

Results flagged for a closer look

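MDM2 is singled out because its change from day 0 to day 10 differed between the hairpins by a test of that difference: −0.72 on the log2 scale, shIL1R minus shScr (limma adjusted p = 0.0389). Both shScr libraries were above both day 0 libraries, and both shIL1R libraries were below theirs. MDM2 was the 1 target called of 35 (2.86%), beside 1.54% of all genes called lower and 0.876% called higher. That count is near the background, so it is not read as a result about the targets as a set. The call was lost on leaving out either shScr day 0 library, either shIL1R day 0 library, either shScr day 4 library, shScr day 10 replicate 2 or shIL1R day 10 replicate 2 (limma adjusted p from 0.0571 to 0.191). It was lost too with no filter on low values (limma adjusted p = 0.0631), with a replicate block (0.0516, or 0.0582 within each hairpin) and when only the compared groups were fitted (0.077). Groups of 2 libraries allow no test for single outlying libraries.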

How the results depend on the processing

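Counts of called targets for day 4 and day 10 against day 0 in shScr cells and for day 10 against day 0 in shIL1R cells stayed within 1.5 times the reported count under all 10 alternative settings and each left-out library (from 16 to 25, 23 to 32 and 23 to 29 when a library was left out). Leaving out a library gave 6 to 21 for day 10 against day 4 in shScr cells (14 reported) and 8 to 21 for day 4 against day 0 in shIL1R cells (17). It gave 0 to 7 between hairpins at day 4 (1), 0 to 12 at day 10 (6) and 0 to 5 for the difference in the day 10 change (1). In fits of the compared groups alone the count was 10 for day 10 against day 4 in shIL1R cells (17), 0 between hairpins at day 4, 0 at day 10 and 0 for the day 10 difference. DESeq2 gave 7 at day 4, 1 for the difference in the day 4 change (0) and 3 for that at day 10, which was 0 with no filter. The share of all genes called under each of these settings is not given, so the counts show only that the calls shifted. The cause of these shifts was not tested.

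The labels do not say that a replicate number marks a shared culture or hairpin, and the correlations were not above 0.1 in every pair. Over 15 pairs of groups the correlation of the difference between replicates 2 and 1 across genes ran from −0.10 to 0.23, and 4 were above 0.1. Within shIL1R it was 0.23 for days 0 and 4, 0.20 for days 4 and 10 and 0.053 for days 0 and 10, so a shared source of same-numbered shIL1R libraries was not settled. With the replicate block over all libraries the counts between hairpins were 1 at day 4, 5 at day 10 and 0 for the day 10 difference, and with the block within each hairpin 0, 0 and 0. For day 10 against day 0 the block gave 30 in shScr and 28 in shIL1R cells.

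The 135 called pairs of target and comparison gave 1350 values under the other settings, of which 49 missed the threshold, and 1620 with a library left out, of which 181 missed. The sign changed in 0 of them. The lowest group mean among the 35 targets was 39.7 normalized counts, and 1 read equals 0.835 to 1.20. TMM scaling moved the median of all genes by at most 0.012 on the log2 scale.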
